A study of Neurospora crassa OR74A with 3 samples.

Results

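The genes described here are those that were at a low level in 2 of 3 Neurospora crassa strains on cellobiose and moderately abundant in the third. They were chosen on CPM, a gene's reads per 1000000 gene reads of its library: under 5 CPM in Δ3βGΔncu05853 and in Δ3βG, and 20 to 200 CPM in Δ3βGΔcdt2Δncu05853. This rule was met by 59 of 9730 genes. It leaves out the most abundant enzymes of plant cell wall breakdown, and it used the levels in all 3 libraries, so those levels and the fold changes between Δ3βGΔcdt2Δncu05853 and the other strains are a description of the choice.

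Neurospora crassa is a filamentous fungus that lives on dead plant matter. RNA was sequenced from mycelia of 3 strains, 1 library each, after 16 h in sucrose medium and 4 h in fresh medium with 2% cellobiose, the glucose disaccharide that cellulases release. Δ3βGΔcdt2Δncu05853 lacks the genes for 3 β-glucosidases, which split cellobiose, together with cdt-2 and ncu05853. Δ3βGΔncu05853 lacks the same β-glucosidase genes and ncu05853, named clp1 for a protein resembling cellodextrin transporters, and Δ3βG, the parent, lacks the β-glucosidase genes alone. With 1 library per strain there is no replicate check and no p-value, and each interval below is an exact 95% interval that covers counting error only. The labels name no strain without cdt-2 that still holds clp1, and no medium other than cellobiose.

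As background, the fungus makes little of its cell wall degrading machinery on sucrose. Soluble cellulose fragments such as cellobiose act as inducers, and the transporters CDT-1 and CDT-2 carry them into the cell. The zinc-cluster regulators CLR-1 and CLR-2 then act on genes for cellulases, for lytic polysaccharide monooxygenases, which cut crystalline cellulose by oxidation, and for hemicellulases, which cut xylan, mannan and other wall polymers. Beside these abundant secreted enzymes the response includes many genes of lower level, some of them with no assigned function.

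The libraries held 9808610 gene reads in Δ3βGΔcdt2Δncu05853, 9465639 in Δ3βGΔncu05853 and 8586155 in Δ3βG, so the 5 CPM ceiling lay at 47.3 and 42.9 reads in the last pair. cdt-2 (NCU08114) had 9 reads in Δ3βGΔcdt2Δncu05853, 2842 in Δ3βGΔncu05853 and 1907 in Δ3βG. clp1 (NCU05853) had 0 reads in Δ3βGΔcdt2Δncu05853, 2 in Δ3βGΔncu05853 and 4190 in Δ3βG. The deleted β-glucosidase genes gh1-1, gh3-4 and gh3-3 had 0 to 47 reads in any library. gh1-1 (NCU00130) had 0 reads in Δ3βGΔcdt2Δncu05853, 47 in Δ3βGΔncu05853 and 18 in Δ3βG, although all 3 strains should lack it. Genes listed as markers of conidia and aerial hyphae, structures other than the labelled mycelium, differed between the strains in both directions. Whether each is restricted to those structures was not checked. The summed level of 8 markers was 4398 CPM in Δ3βGΔcdt2Δncu05853, against 202807 CPM in Δ3βGΔncu05853 and 190217 CPM in Δ3βG. Most of it was the hydrophobin gene eas, and the other 7 summed to 1350 CPM in Δ3βGΔcdt2Δncu05853, 2625 in Δ3βGΔncu05853 and 3715 in Δ3βG. eas, con-6, con-13, fl and al-3 were lower in Δ3βGΔcdt2Δncu05853 than in both other strains. con-8 was higher, at 917 CPM in Δ3βGΔcdt2Δncu05853, 511 CPM in Δ3βGΔncu05853 and 642 CPM in Δ3βG, and so was ccg-14, at 56.4 CPM in Δ3βGΔcdt2Δncu05853, 8.03 CPM in Δ3βGΔncu05853 and 8.04 CPM in Δ3βG. con-10 lay at 83.4 CPM in Δ3βGΔcdt2Δncu05853, 48.6 CPM in Δ3βGΔncu05853 and 80.6 CPM in Δ3βG. No marker particular to mycelium was listed; the housekeeping genes act, pma-1 and tef-1 lay at 1108 to 8662 CPM in Δ3βGΔcdt2Δncu05853, 1186 to 5158 CPM in Δ3βGΔncu05853 and 1126 to 4972 CPM in Δ3βG. None of the 8 listed markers was at 0 reads in any library, and their part in the results below was not tested. Of all reads, those outside genes were 5.16% in Δ3βGΔcdt2Δncu05853, 8.41% in Δ3βGΔncu05853 and 9.64% in Δ3βG, and multiply aligned ones 2.48% in Δ3βGΔcdt2Δncu05853, 4.91% in Δ3βGΔncu05853 and 6.36% in Δ3βG.

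Few of the genes that were low in the other strains reached this level in Δ3βGΔcdt2Δncu05853. Under 5 CPM in both Δ3βGΔncu05853 and Δ3βG were 2478 genes. In Δ3βGΔcdt2Δncu05853, 2245 of these (90.6%) were still under 5 CPM, 159 (6.42%) were at 5 to 20 CPM, the 59 members made up 2.38%, and 15 (0.605%) exceeded 200 CPM. The members' levels in Δ3βGΔcdt2Δncu05853 placed them between rank 872 and rank 4977 of the 9730 genes. The limits of 20 to 200 CPM set this span, which lies well below the most abundant wall enzymes.

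**Figure D1:**
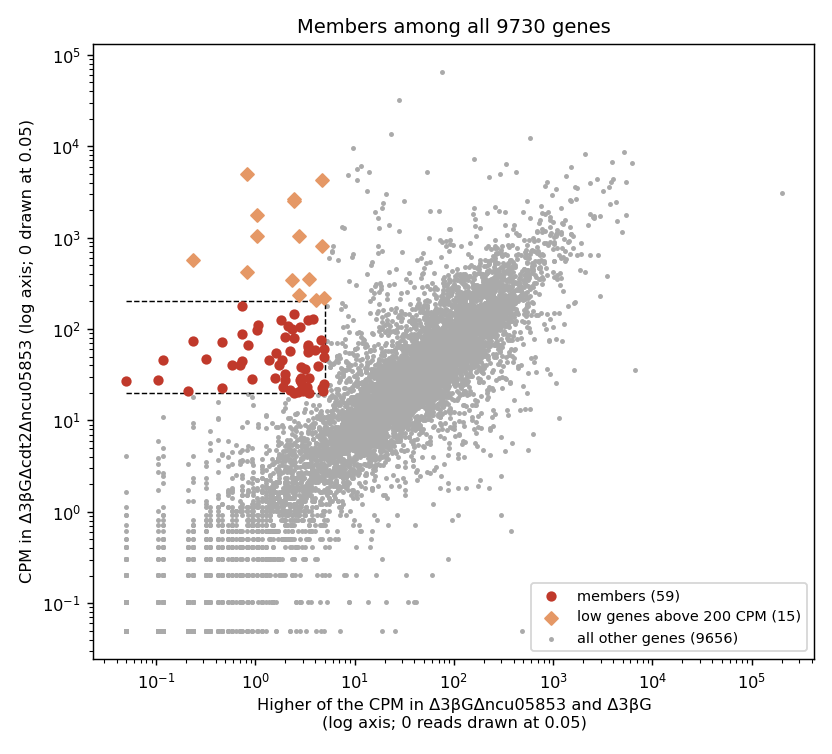
Each point is 1 gene, with its CPM in Δ3βGΔcdt2Δncu05853 on the vertical axis and the higher of its CPM in Δ3βGΔncu05853 and Δ3βG on the horizontal axis, both on log scales with 0 reads drawn at 0.05. The 59 members (red) fill the dashed box that the rule sets, from 20 to 200 CPM and under 5 CPM, and the 15 low genes above 200 CPM (orange) lie over it.

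Together the members took 32066 reads in Δ3βGΔcdt2Δncu05853, 1181 in Δ3βGΔncu05853 and 910 in Δ3βG. Of gene reads that was 0.327% in Δ3βGΔcdt2Δncu05853, 0.0125% in Δ3βGΔncu05853 and 0.0106% in Δ3βG. The median member had 45.0 CPM in Δ3βGΔcdt2Δncu05853, 2.01 in Δ3βGΔncu05853 and 1.75 in Δ3βG. In Δ3βGΔcdt2Δncu05853, 26 members lay at 20 to 40 CPM, 24 at 40 to 100 CPM and 9 above 100 CPM. In the other strains, 15 members were under 1 CPM in both libraries, 26 had a higher value of 1 to 3 CPM and 18 one of 3 to 5 CPM, so most were read at a low level rather than absent. The deposited RPKM, which also divides by exon length and so allows genes to be compared in level, ran from 6.93 to 158 over the members in Δ3βGΔcdt2Δncu05853, with a median of 24.1, against medians of 1.09 in Δ3βGΔncu05853 and 0.818 in Δ3βG.

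The rule alone makes each member at least 4-fold higher in Δ3βGΔcdt2Δncu05853, and all 59 were, beside 5.28% of 8584 genes compared with Δ3βGΔncu05853 and 6.24% compared with Δ3βG. Within that floor the members spread widely. Against Δ3βGΔncu05853 the median fold was 26.1, with 46 members at least 10-fold and 24 at least 50-fold higher, and against Δ3βG it was 30.2, with 49 at least 10-fold and 21 at least 50-fold higher. The smallest folds were 4.37 for NCU07336 over Δ3βGΔncu05853 and 4.90 for NCU10687 over Δ3βG. These folds stand over the same library of Δ3βGΔcdt2Δncu05853, so the 2 comparisons are not independent.

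**Figure D2:**
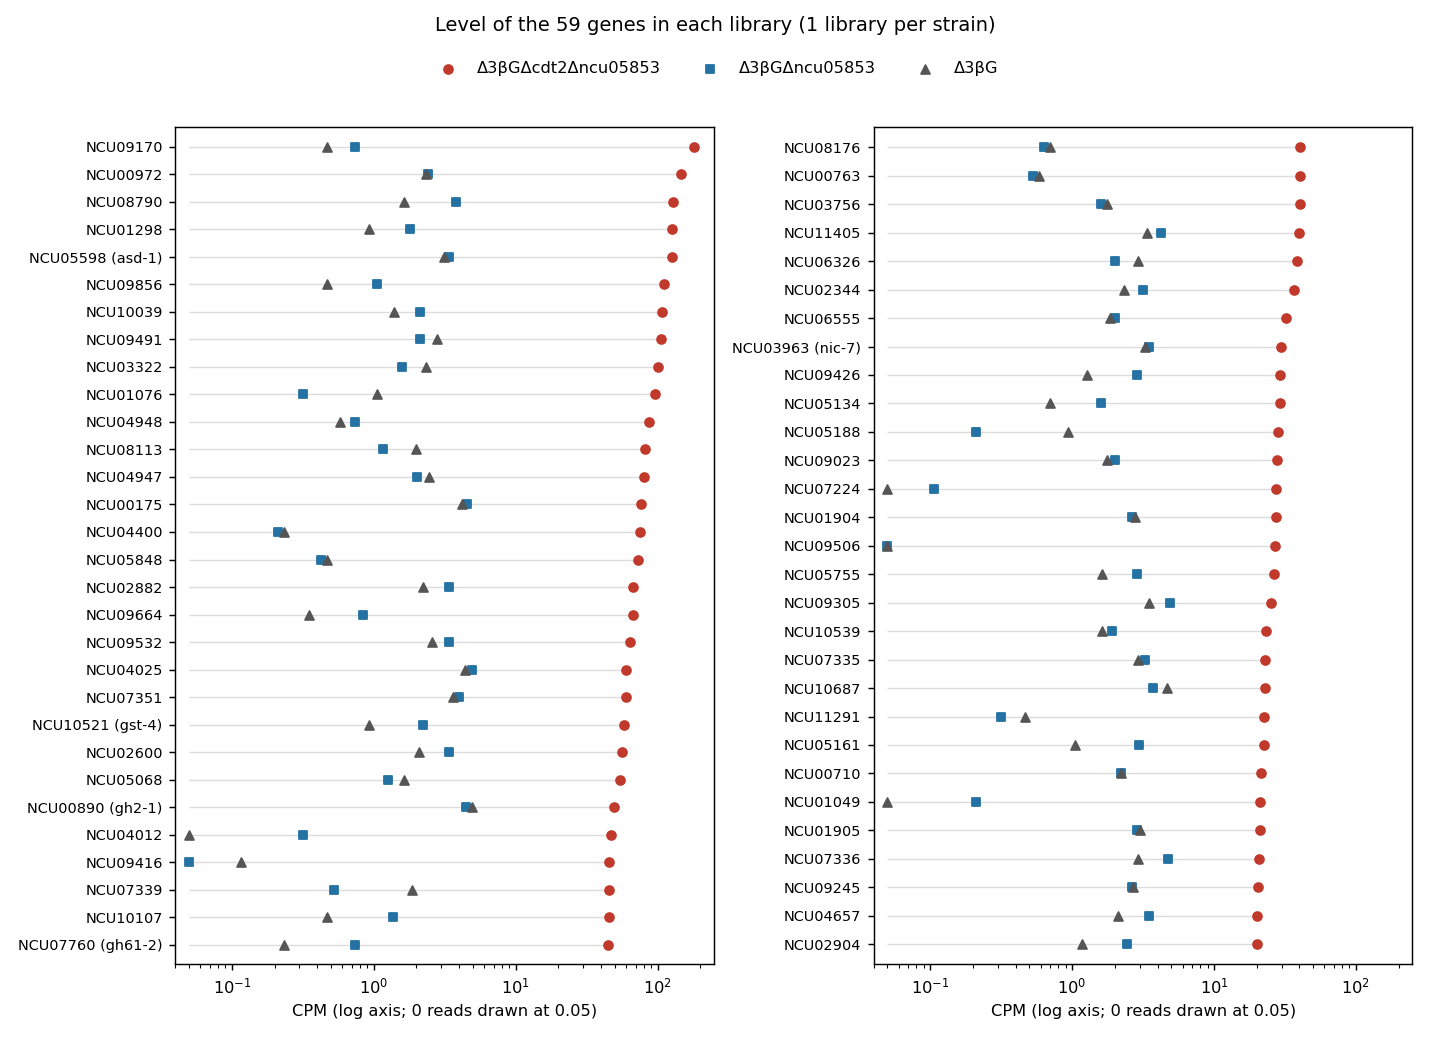
CPM of each of the 59 members in Δ3βGΔcdt2Δncu05853 (red circles), Δ3βGΔncu05853 (blue squares) and Δ3βG (grey triangles), ordered by the level in Δ3βGΔcdt2Δncu05853, on a log axis with 0 reads drawn at 0.05. The rule sets the gap between red and the others, while blue and grey points lie on either side of each other and 1 member, NCU09506, has 0 reads in both.

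Of the 12 members with a symbol or a place in a list, most were linked to the breakdown of plant cell walls. The lists hold 57 genes of wall-degrading enzymes and were chosen with earlier results of these data known. This majority therefore partly reflects what was listed. The RefSeq table gave 5 of the 59 a symbol, beside 1118 of all 9730 genes. In the lists of wall-degrading enzymes stood 8 members, 1 of which also has a symbol. The remaining 47 had neither, and no role is given for them. gh61-2 (NCU07760), a lytic polysaccharide monooxygenase, had 441 reads in Δ3βGΔcdt2Δncu05853, 7 in Δ3βGΔncu05853 and 2 in Δ3βG, 60.8-fold over Δ3βGΔncu05853 (29.3 to 152) and 193-fold over Δ3βG (53.1 to 1599). NCU02344, listed in the same group, had 361 reads in Δ3βGΔcdt2Δncu05853, 30 in Δ3βGΔncu05853 and 20 in Δ3βG. It was 11.6-fold higher than in Δ3βGΔncu05853 (7.99 to 17.5) and 15.8-fold higher than in Δ3βG (10.1 to 26.2), so the 2 monooxygenase-list members differed mainly in how little was read in the other strains.

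The hemicellulase list gave 4 members. NCU00972 was second among the members both in CPM and in RPKM in Δ3βGΔcdt2Δncu05853, with 1426 reads in Δ3βGΔcdt2Δncu05853, 23 in Δ3βGΔncu05853 and 20 in Δ3βG. NCU09491 had 1044 reads in Δ3βGΔcdt2Δncu05853, 20 in Δ3βGΔncu05853 and 24 in Δ3βG, and NCU09664 had 656 reads in Δ3βGΔcdt2Δncu05853, 8 in Δ3βGΔncu05853 and 3 in Δ3βG. NCU07351 had the most reads of the 4 in the other strains, with 585 reads in Δ3βGΔcdt2Δncu05853, 38 in Δ3βGΔncu05853 and 31 in Δ3βG. Their folds over Δ3βG were 62.4 (40.3 to 102) for NCU00972, 38.1 (25.4 to 59.7) for NCU09491, 191 (65.2 to 931) for NCU09664 and 16.5 (11.5 to 24.5) for NCU07351. The longest exons of any member, 5013 bases, belonged to NCU07351, and its RPKM in Δ3βGΔcdt2Δncu05853 was 10.9, against 98.7 for NCU00972. gh2-1 (NCU00890), of a glycoside hydrolase family that includes β-mannosidases, was not in a list and sat close to the ceiling, with 486 reads in Δ3βGΔcdt2Δncu05853 and 42 reads in each of the other libraries.

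Genes for the breakdown of pectin, the gel-forming wall polymer rich in galacturonic acid, were also among the members. asd-1 (NCU05598), first known from a mutant with defective ascus development and encoding a protein resembling rhamnogalacturonases, had 1241 reads in Δ3βGΔcdt2Δncu05853, 32 in Δ3βGΔncu05853 and 27 in Δ3βG. Its fold was 37.4 over Δ3βGΔncu05853 (26.4 to 55.0) and 40.2 over Δ3βG (27.5 to 61.3). From the pectin list, NCU08176 had 396 reads in Δ3βGΔcdt2Δncu05853, 6 in Δ3βGΔncu05853 and 6 in Δ3βG, and NCU06326 had 375 reads in Δ3βGΔcdt2Δncu05853, 19 in Δ3βGΔncu05853 and 25 in Δ3βG. NCU08176 was thus 63.7-fold over Δ3βGΔncu05853 (29.0 to 175), and NCU06326 19.0-fold (12 to 32). These were 2 of the 6 genes in that list. Of the others, 3 were low in both other strains and stayed under 20 CPM in Δ3βGΔcdt2Δncu05853. The remaining 1 was at or above the 5 CPM ceiling in another strain.

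A pair of members with symbols fell outside wall breakdown. gst-4 (NCU10521), named as a glutathione S-transferase gene, a class of enzymes that attach glutathione to toxic or oxidised compounds, had 568 reads in Δ3βGΔcdt2Δncu05853, 21 in Δ3βGΔncu05853 and 8 in Δ3βG. nic-7 (NCU03963), named for a requirement for nicotinic acid, had 289 reads in Δ3βGΔcdt2Δncu05853, 33 in Δ3βGΔncu05853 and 28 in Δ3βG. nic-7 was one of the weaker members, at 8.45-fold over Δ3βGΔncu05853 (5.88 to 12.5) and 9.04-fold over Δ3βG (6.12 to 13.8).

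Most of the listed wall-degrading enzymes lay outside the limits of the rule. Of 57 genes in 5 enzyme lists, 8 were members, and 38 of the other 49 were at or above the 5 CPM ceiling in another strain or above 200 CPM in Δ3βGΔcdt2Δncu05853. The rest were low in the other strains and stayed under 20 CPM in Δ3βGΔcdt2Δncu05853. They were 3 cellulases, 2 genes of the monooxygenase list, 3 hemicellulases and 3 pectin-list genes. At least 4-fold higher than in both other strains were 7 of 10 cellulases, 11 of 15 monooxygenase and cellobiose dehydrogenase genes, 20 of 22 hemicellulases, 3 of 6 pectin-list genes and 1 of 4 remaining β-glucosidases, where the share over all 8584 genes was 4.81%. Their median log2 ratios over Δ3βG were 7.78, 7.29, 6.08, 2.53 and 1.72, beside -0.40 for all genes. Sugar transporters (7 of 23), regulators of cellulase and carbon use (5 of 11) and pentose catabolism (2 of 5) also held genes at least 4-fold higher, and none of these was a member. In these 8 lists, 1 hemicellulase, 2 transporters and 1 regulator were at least 4-fold lower than in both other strains. Of the 8 genes listed as markers of conidia and aerial hyphae, 1 (ccg-14) was at least 4-fold higher, and 4 were at least 4-fold lower than in both other strains, beside 5.55% of all genes. Medians over Δ3βG were 1.21 for transporters, 2.23 for regulators, 1.52 for pentose catabolism and -2.51 for the markers. The split over all genes depended on the scaling: 413 genes lay above the 4-fold line against both other strains and 476 below it on library totals, 552 and 316 did with TMM, and 331 and 687 on totals without eas. Every list named here kept the sign of its median under these scalings.

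Genes with no symbol or list were also among the members with most reads. NCU09170 led them with 1762 reads in Δ3βGΔcdt2Δncu05853, 7 in Δ3βGΔncu05853 and 4 in Δ3βG, 243-fold over Δ3βGΔncu05853 (118 to 605) and 386-fold over Δ3βG (150 to 1417). NCU08790 had 1262 reads in Δ3βGΔcdt2Δncu05853, 36 in Δ3βGΔncu05853 and 14 in Δ3βG, and NCU01298 had 1243 reads in Δ3βGΔcdt2Δncu05853, 17 in Δ3βGΔncu05853 and 8 in Δ3βG. NCU09856, NCU10039 and NCU03322 had slightly fewer reads in Δ3βGΔcdt2Δncu05853. NCU09856 had 1093 reads in Δ3βGΔcdt2Δncu05853, 10 in Δ3βGΔncu05853 and 4 in Δ3βG, and NCU10039 had 1046 reads in Δ3βGΔcdt2Δncu05853, 20 in Δ3βGΔncu05853 and 12 in Δ3βG. NCU03322 had 989 reads in Δ3βGΔcdt2Δncu05853, 15 in Δ3βGΔncu05853 and 20 in Δ3βG. Per length the order changed, and NCU01076, whose exons span 558 bases, stood first with 158 RPKM in Δ3βGΔcdt2Δncu05853. NCU01076 had 947 reads there, 3 in Δ3βGΔncu05853 and 9 in Δ3βG.

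Some members were close to undetected outside Δ3βGΔcdt2Δncu05853. In both other libraries 6 members had 3 reads or fewer, a level at which no ratio between those libraries is given. NCU09506 had 264 reads in Δ3βGΔcdt2Δncu05853 and 0 in both others, so it was at least 84.9-fold higher than in Δ3βGΔncu05853 and at least 77.0-fold higher than in Δ3βG, taking 3 reads per library as the floor. NCU04012 had 458 reads in Δ3βGΔcdt2Δncu05853, 3 in Δ3βGΔncu05853 and 0 in Δ3βG, at least 134-fold higher than in Δ3βG. NCU07224 had 270 reads in Δ3βGΔcdt2Δncu05853, 1 in Δ3βGΔncu05853 and 0 in Δ3βG, at least 78.8-fold higher than in Δ3βG. Like these, NCU01049 was read 0 times in Δ3βG, with 208 reads in Δ3βGΔcdt2Δncu05853 and 2 in Δ3βGΔncu05853, at least 60.7-fold higher than in Δ3βG. NCU09416 had 448 reads in Δ3βGΔcdt2Δncu05853, 0 in Δ3βGΔncu05853 and 1 in Δ3βG. NCU04400 had 734 reads in Δ3βGΔcdt2Δncu05853, 2 in Δ3βGΔncu05853 and 2 in Δ3βG, and its fold of 354 over Δ3βGΔncu05853 had an interval of 97.7 to 2930.

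Some genes lay close to the limits of the rule. Just inside 20 CPM in Δ3βGΔcdt2Δncu05853 were NCU02904 and NCU04657, both at 20.1 CPM, and just outside were NCU05170 at 19.5 CPM and NCU04871 at 19.2 CPM. At the upper limit NCU09170 had 180 CPM and NCU00972 145 CPM, while the endoglucanase gene gh45-1 (NCU05121) at 208 CPM and NCU09024 at 218 CPM fell outside. At the 5 CPM ceiling NCU04025 (4.97 CPM in Δ3βGΔncu05853) and gh2-1 (4.89 CPM in Δ3βG) were inside, and NCU03654 (5.01 CPM in Δ3βG) and NCU05501 (5.28 CPM in Δ3βGΔncu05853) outside. At the lower limit and at the ceiling, genes inside and outside differed by fewer than 10 reads.

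Many members lay beside other genes that were higher in Δ3βGΔcdt2Δncu05853, a feature that the rule did not use. Among the 59, 34 (57.6%) had a direct neighbour in the RefSeq gene order at least 4-fold higher than in both other strains, against 289 of 2419 other low genes (11.9%). Leaving out neighbours that are members themselves, the counts were 28 (47.5%) and 249 (10.3%). Of all 9729 genes placed in that order, 856 (8.80%) had such a neighbour, and 754 (7.75%) did with members left out. Under 5 other scalings 28 to 35 members and 247 to 364 other low genes had such a neighbour, members included. Another member was the direct neighbour of 10 members (16.9%). A member was the direct neighbour of 44 other low genes (1.82%) and of 118 of all genes (1.21%). Neighbours above 200 CPM in Δ3βGΔcdt2Δncu05853 were found for 17 members (28.8%), 308 other low genes (12.7%) and 1505 of all genes (15.5%).

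**Figure D3:**
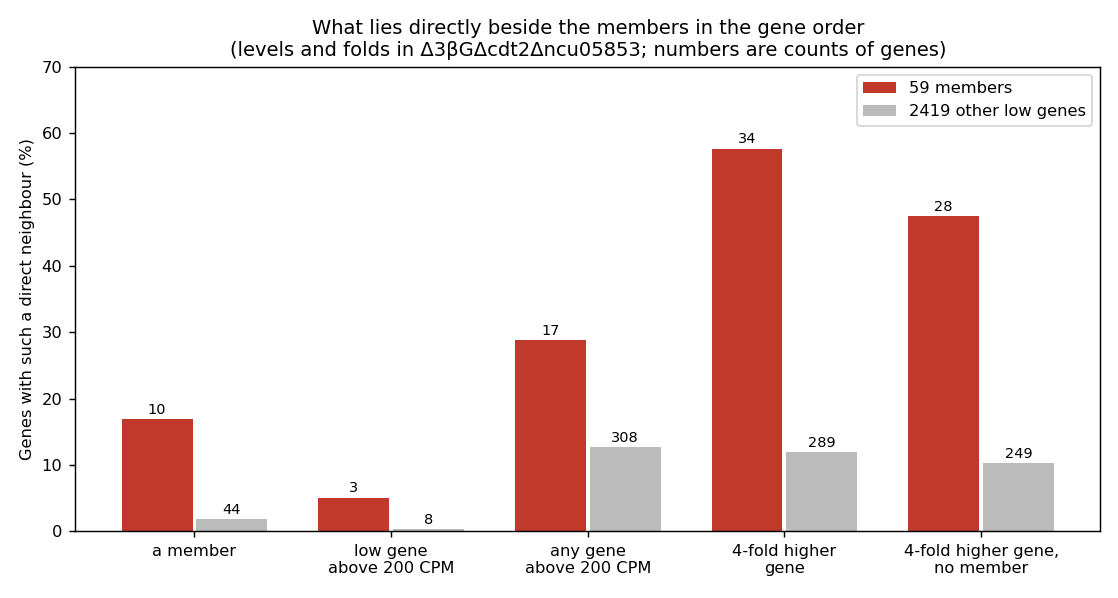
Share of the 59 members (red) and of the 2419 other low genes (grey) that have a direct neighbour of each kind in the gene order, with the count of genes over each bar. For every kind of neighbour the members' share is the larger, from 5.08% against 0.331% for low genes above 200 CPM to 57.6% against 11.9% for genes at least 4-fold higher than in both other strains.

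The 10 neighbouring members formed 5 pairs. NCU04948 had 859 reads in Δ3βGΔcdt2Δncu05853, 7 in Δ3βGΔncu05853 and 5 in Δ3βG, and NCU04947 beside it had 788 reads in Δ3βGΔcdt2Δncu05853, 19 in Δ3βGΔncu05853 and 21 in Δ3βG. On the same chromosome, IV, NCU04400 lay beside NCU10107, which had 446 reads in Δ3βGΔcdt2Δncu05853, 13 in Δ3βGΔncu05853 and 4 in Δ3βG. A further pair on that chromosome was weaker: NCU07335 had 226 reads in Δ3βGΔcdt2Δncu05853, 31 in Δ3βGΔncu05853 and 25 in Δ3βG, and NCU07336 had 204 reads in Δ3βGΔcdt2Δncu05853, 45 in Δ3βGΔncu05853 and 25 in Δ3βG. On chromosome I, NCU01904 had 268 reads in Δ3βGΔcdt2Δncu05853, 25 in Δ3βGΔncu05853 and 24 in Δ3βG, and its neighbour NCU01905 had 208 reads in Δ3βGΔcdt2Δncu05853, 27 in Δ3βGΔncu05853 and 26 in Δ3βG. On chromosome III, NCU09506 lay beside NCU11405, which had 387 reads in Δ3βGΔcdt2Δncu05853, 40 in Δ3βGΔncu05853 and 29 in Δ3βG. The pairs on chromosome I and of NCU07335 and NCU07336 were among the weakest members, at 4.37-fold to 10.3-fold over Δ3βGΔncu05853.

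Several members sat next to the most abundant wall enzymes. NCU07339 was the neighbour of the cellobiohydrolase gene cbh-1 (NCU07340), which stood at 65039 CPM in Δ3βGΔcdt2Δncu05853, 76.3 CPM in Δ3βGΔncu05853 and 57.1 CPM in Δ3βG. NCU07339 had 447 reads in Δ3βGΔcdt2Δncu05853, 5 in Δ3βGΔncu05853 and 16 in Δ3βG. Set against the reads of cbh-1 this was 0.0701% in Δ3βGΔcdt2Δncu05853, 0.693% in Δ3βGΔncu05853 and 3.27% in Δ3βG. NCU00763, with 395 reads in Δ3βGΔcdt2Δncu05853, 5 in Δ3βGΔncu05853 and 5 in Δ3βG, lay beside the endoglucanase gene gh5-1, NCU07224 beside the xylanase gene gh11-2 and NCU01049 beside the monooxygenase gene gh61-4. In Δ3βGΔcdt2Δncu05853 NCU00763 held 0.950% of its neighbour's reads, NCU07224 0.558% and NCU01049 0.220%. In Δ3βGΔncu05853 the shares were 18.5% for NCU00763, 14.3% for NCU07224 and 2.17% for NCU01049, on 5, 1 and 2 reads. In Δ3βG NCU00763 held 12.5% of its neighbour's reads, 5 of 40, while NCU07224 had 0 reads against 7 of gh11-2 and NCU01049 had 0 against 55 of gh61-4. The reads of NCU07224 and NCU01049 in these strains were too few to compare their shares.

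A pair of members neighboured genes of cellodextrin uptake and control. NCU08113, the neighbour of the deleted cdt-2, had 797 reads in Δ3βGΔcdt2Δncu05853, 11 in Δ3βGΔncu05853 and 17 in Δ3βG, 69.9-fold over Δ3βGΔncu05853 (38.9 to 141). In the strains that still hold cdt-2, that gene stood at 300.2 CPM (Δ3βGΔncu05853) and 222 CPM (Δ3βG), while NCU08113 stayed under 5 CPM. The loss of cdt-2 itself and the change of the locus beside NCU08113 cannot be told apart in this design. NCU05848 had 713 reads in Δ3βGΔcdt2Δncu05853, 4 in Δ3βGΔncu05853 and 4 in Δ3βG. Its neighbour NCU05846, from the list of regulators, stood at 1941 CPM in Δ3βGΔcdt2Δncu05853, 69.9 CPM in Δ3βGΔncu05853 and 52.1 CPM in Δ3βG.

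Members were found on all 7 chromosomes, most often on I (14), IV (13) and VII (10). Of all genes, chromosomes I, IV and VII hold 24.1%, 15.3% and 10.8%. Chromosome I held 23.7% of the members, close to its share of all genes. Chromosomes IV and VII held larger shares of the members than of all genes. Only 1 member, NCU09491, was on chromosome II, which holds 10.6% of all genes. The members' exons had a median length of 1510 bases, longer than the 1019 bases of other low genes. That median was shorter than the 2487 bases of genes at 20 to 200 CPM in Δ3βGΔcdt2Δncu05853 that were not members. In a fixed range of CPM, shorter genes have a higher level per length. CPM is not divided by length, so at one level per length a longer gene reaches 20 CPM more easily. It also passes the 5 CPM ceiling more easily, which leaves it out. The 15 low genes above 200 CPM in Δ3βGΔcdt2Δncu05853 had a median of 1007 bases. Whether length affected which low genes met the rule was not tested.

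By the rule the members were low both in Δ3βGΔncu05853 and in Δ3βG, but the rule sets no order between these strains. Within the 5 CPM ceiling the members' summed level was slightly higher in Δ3βGΔncu05853. Summed over the members, Δ3βGΔncu05853 had 125 CPM and Δ3βG 106 CPM, a ratio of 1.18 (1.08 to 1.28). With at least 10 reads over both libraries, 50 members had a ratio of 1.17 (1.07 to 1.28) and other low genes 1.0 (0.981 to 1.02). Intervals of summed reads treat the sum as 1 count and leave out the scatter between genes. The 15 low genes above 200 CPM in Δ3βGΔcdt2Δncu05853 had a ratio of 0.941 (0.799 to 1.11). That interval includes 1.

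Single members were mostly too shallow for a comparison between Δ3βGΔncu05853 and Δ3βG. Of 59 members, 50 had at least 10 reads over both libraries, and of these 33 (66%) had a log2 ratio above 0, where 47.2% of 8382 genes did. Their median log2 ratio was 0.17, beside -0.02 for all 8382 genes and -0.02 for the 1082 other low genes. At least 2-fold higher were 9 of the 50 (18.0%), beside 1.53% of all genes and 7.67% of other low genes, and at least 2-fold lower were 3 (6.0%), beside 1.53% and 6.75%. Ratios of low genes scatter more. The interval excluded 1 for 5 of the 50 members (10%), close to the 95 of 1082 other low genes (8.78%).

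The 4 members whose intervals lay above 1 (8.0% of the 50, beside 49 or 4.53% of the 1082 other low genes) were NCU05161, gst-4, NCU08790 and NCU09426. NCU05161 had 28 reads in Δ3βGΔncu05853 and 9 in Δ3βG, 2.82-fold (1.29 to 6.80), and gst-4 had 21 in Δ3βGΔncu05853 and 8 in Δ3βG, 2.38-fold (1.01 to 6.22). NCU08790 had 36 reads in Δ3βGΔncu05853 and 14 in Δ3βG, 2.33-fold (1.23 to 4.68), and NCU09426 had 27 in Δ3βGΔncu05853 and 11 in Δ3βG, 2.23-fold (1.07 to 4.97). NCU05134, with 15 reads in Δ3βGΔncu05853 and 6 in Δ3βG, had a similar ratio of 2.27 but an interval that included 1 (0.831 to 7.13). In Δ3βGΔcdt2Δncu05853 these genes had 220 to 1262 reads, and the higher CPM of NCU05161, gst-4, NCU08790 and NCU09426 there is what the rule selected.

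At the other end stood NCU07339, the neighbour of cbh-1, with 5 reads in Δ3βGΔncu05853 and 16 in Δ3βG, a ratio of 0.283 (0.0812 to 0.810). It was the 1 member with an interval below 1. NCU08113, NCU03322, NCU06326 and NCU09491 had ratios of 0.587, 0.680, 0.689 and 0.756, and all 4 intervals included 1. Of the 12 members with a symbol or a list, none but gst-4 had an interval without 1 in this comparison.

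**Figure D4:**
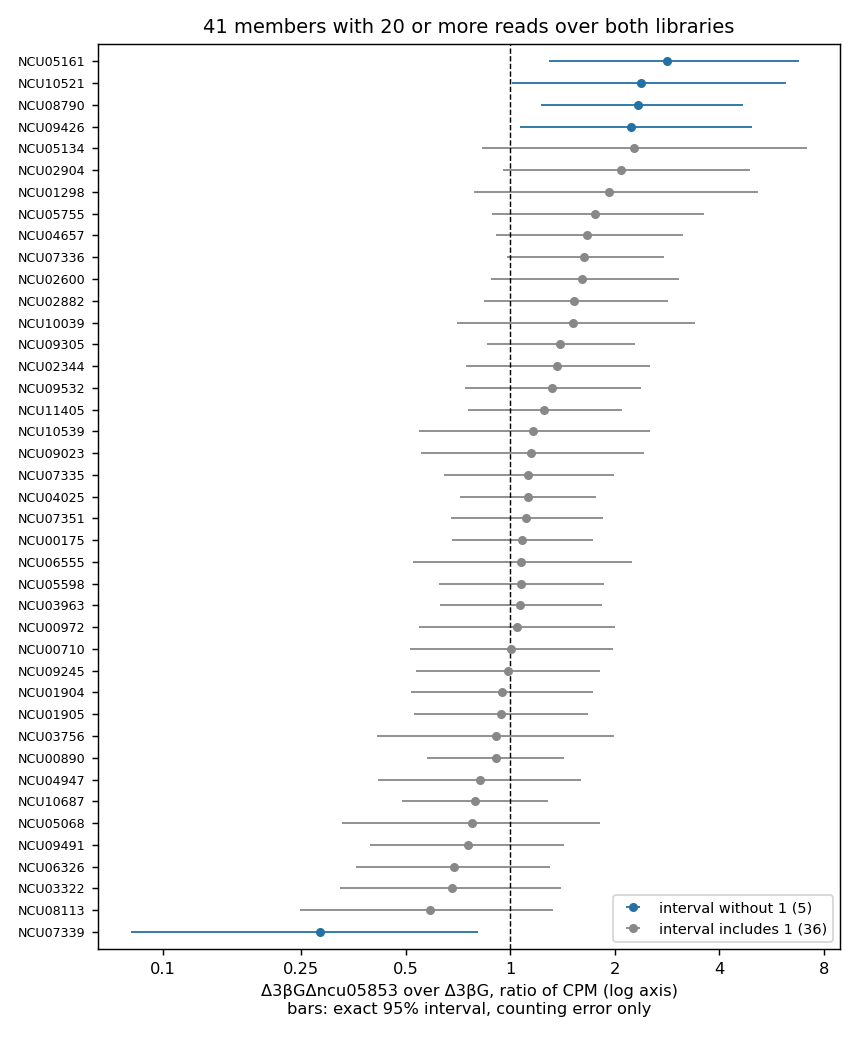
Ratio of CPM in Δ3βGΔncu05853 over Δ3βG for the 41 members with at least 20 reads over both libraries, on a log axis, with exact 95% intervals from counting error. The intervals of 5 members (blue) leave out 1, 4 of them above it and NCU07339 below it, and 36 (grey) include it.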

How the data were processed

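RNA was sequenced from mycelia of 3 strains, 1 library each, grouped by the strain in the labels. The deposited read counts per gene are whole numbers made with TopHat and HTSeq, per the submitters' processing notes. Versions, options, build, gene models and strand use were not given in the sources used here. Without strand, overlapping antisense genes cannot be told apart, and multiply aligned reads were not counted, which may lower the counts of close paralogs. The RPKM values, per the file headers, were deposited on the scale of each file's total, genes and the rest, as a recomputation showed, and served for levels per length. Exon lengths in bases are in another deposited column.

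CPM was computed on the sum of reads over the NCU rows; rows that name no gene, 8.53% to 16.8% of all reads, were left out. To log2 ratios a prior of 0.5 counts, adjusted to library size, was added; folds carry none and have exact Clopper-Pearson 95% intervals, conditional on the sum of both counts. PCR copies are not independent molecules, so intervals and floors (3 reads per library) cover counting error only. Genes compared had at least 10 reads over the libraries concerned, without the 5 deleted genes. Scripts were tested on simulated counts. Python 3.11.15, scipy 1.17.1, R 4.3.3, edgeR 4.0.16 and DESeq2 1.42.0 were used, the last pair for scaling factors only. RefSeq assembly NC12 matched 9729 of 9730 identifiers and gave symbols and gene order.

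The members, the gene lists and the settings were chosen with earlier results of these data known. Lists of gene roles came from general knowledge of the species. Named were members with a symbol or list, the 12 with the highest CPM in Δ3βGΔcdt2Δncu05853, the 5 highest and the 5 lowest ratios of Δ3βGΔncu05853 over Δ3βG among members with at least 20 reads over both, members in runs, members with 0 reads in both other libraries, and the 2 genes on each side of each limit. Members beside abundant or deleted genes, other members with few reads and those with the smallest folds were named after their values were seen. Promoter and protein sequences were not used here.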

Additional observations from a re-analysis of the deposited data

How the results depend on the processing

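With 1 library per strain no setting could leave out a replicate. No paired analysis was possible because each strain had 1 library. Results were recomputed under other scalings, limits and priors; a median was taken to have moved when it left the exact binomial 95% interval of the median over the 59 members. The number of members was 51 to 86 under 5 other scalings and deposited RPKM, which shared 37 genes with the 59, and 64 with a range of 20 to 400 CPM. It was 25 with a ceiling of 2 CPM, 133 with a ceiling of 10 CPM and 33 with a range of 40 to 200 CPM. Under these 3 limits the median log2 ratio of Δ3βGΔcdt2Δncu05853 over Δ3βG was 7.01, 3.33 and 5.88, against 4.88 with the limits used. Over Δ3βGΔncu05853 it was 6.30 with the ceiling of 2 CPM and 3.03 with that of 10 CPM, against 4.67. These shifts follow from the limits, which set the ratios. The median log2 ratio of Δ3βGΔncu05853 over Δ3βG, 0.16 over all 59, was 0.11 to 0.24 under 12 other settings and 0.00 with the ceiling of 2 CPM. Scaling by TMM moved the median log2 ratio of all genes for Δ3βGΔcdt2Δncu05853 over Δ3βG to 0.00, against -0.40 on library totals, and leaving eas out of the totals moved it to -0.69. Counting the 15 low genes above 200 CPM as members, 16 of 74 were direct neighbours of another. The median exon length of other genes at 20 to 200 CPM, 2487 bases, lay outside the members' interval. Members with no neighbour above 200 CPM, a setting chosen after seeing the data, were 42, with medians of 4.95 and 4.48 over Δ3βG and Δ3βGΔncu05853. The motif search was not run, since no promoters were given. At 5 CPM and under, a gene had fewer than 50 reads, which limits every ratio between Δ3βGΔncu05853 and Δ3βG.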
